A study of Mus musculus with 3 samples.

Results

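The genes described here are 41 genes of the type I interferon response: the receptor subunits and their kinases, the transcription factors that carry the signal, and the antiviral effectors that it switches on. They were taken from a list of names that was chosen with earlier results of these data known. The names were matched in any case to the current or older symbols of the array's probes. Each gene was read from its brightest probe, by the mean of the 3 arrays. In all 37 of the 41 had a probe, of 17742 genes named on the array. No probe was matched to Tyk2, Ifit3, Oas1a or Trim30a, which are not analysed here. Ifnar1, Jak1, Irf1 and Rtp4 had a second, dimmer probe each.

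The arrays measured RNA from cultured mouse acute leukaemia cells of the BXH-2 strain that originated in bone marrow. The sensitive group is the parental line B117P on 2 arrays, replicates 1 and 2, and the resistant group is 1 array of B117HS, which was raised from B117P by stepwise exposure to rising cytarabine (Ara-C) over about 10 weeks. Both groups thus come from 1 line, and the labels do not tell whether the sensitive replicates were separate cultures or whether the resistant line was cloned. All 3 samples were grown in the same medium, and the labels name no interferon or other stimulus. BXH-2 is a recombinant inbred strain whose mice carry a germline mutation of Irf8 and an expressed murine leukaemia virus, and both lines come from this background.

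Type I interferons bind the receptor pair Ifnar1 and Ifnar2, whose kinases Jak1 and Tyk2 phosphorylate STAT factors, among them Stat2. Stat2 and Irf9 are subunits of the complex ISGF3, which binds the interferon-stimulated response element (ISRE) of target genes. The targets include sensors of foreign nucleic acid, enzymes and binding proteins that block viral RNA and its translation, and the factor Irf7, which amplifies interferon production. Many of them are transcribed at a low tonic level in myeloid cells without infection.

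Most of the interferon effectors were lower in the resistant cells than in either sensitive array, and 2, Oasl1 and Bst2, were higher. With 50 units added before the log2, the deepest falls were those of Ifi27, Rtp4, Oas2, Usp18 and Ifi27l2a. This order depended on the units added, and with 16 Rsad2 had the deepest, at -6.67. The receptor gene Ifnar1 and the factor gene Irf1 were not called. Calls required a limma p under 0.05, after Benjamini-Hochberg adjustment over every gene on the array, and a difference of at least 1 on the log2(intensity + 50) scale, in 1 direction, from each sensitive array. As deposited, 25 of 37 were called lower, against 18.5% of all genes, and 2 were called higher, against 5.23%, which makes 27 calls in either direction against 23.7%. The median difference, resistant minus sensitive, was -1.75 for the 37 genes and -0.33 for all genes. Because the list was chosen with earlier results of these data known, its shares here and below are descriptions and not a test.

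Bright probes read low on the resistant array: over the 6184 probes that averaged 500 units or more, its median log2 ratio to the sensitive mean was -0.77. With each array's shift of this kind removed, 17 of the 37 genes were still called lower (8.44% of all genes) and 2 higher (9.87%). The same 17 and 2 genes were called on both scales, against 8.34% and 5.21% of all genes, or 12.6% and 7.85% of the genes that reached 50 units on some array, as 32 of the 37 did. Below, "fell" and "rose" are used only of genes called on both scales, among the interferon genes these 19, and log2 differences are as deposited unless the sentence says that they are scaled. The scaled median was -1.20 for the interferon genes and -0.06 for all genes. By rank, which no scaling of an array alters, 32 of 37 stood lower on the resistant array than on both sensitive arrays, against 45.6% of all genes, and 3 stood higher, against 41.7%.

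The single resistant array was assumed to vary like the sensitive arrays, whose spread gave 1 residual degree of freedom per gene and may be technical. Shares of all genes were counted on both scales above but not under the settings that follow, so these counts have no share beside them. The number of calls depended on the processing, for a cause that was not tested: after quantile normalization 9 were called lower (Eif2ak2, Ifit2, Mx2, Rsad2, Cmpk2, Parp14, Ifi27, Ifi27l2a and Rtp4) and 0 higher, and with a floor of 50 units in place of the offset none was called. The size rule alone was met by 18 lower and 2 higher genes after quantile normalization and by 25 and 2 with the floor. At an unadjusted limma p under 0.05 the counts were 17 and 1 after quantile normalization and 15 and 0 with the floor.

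**Figure D1:**
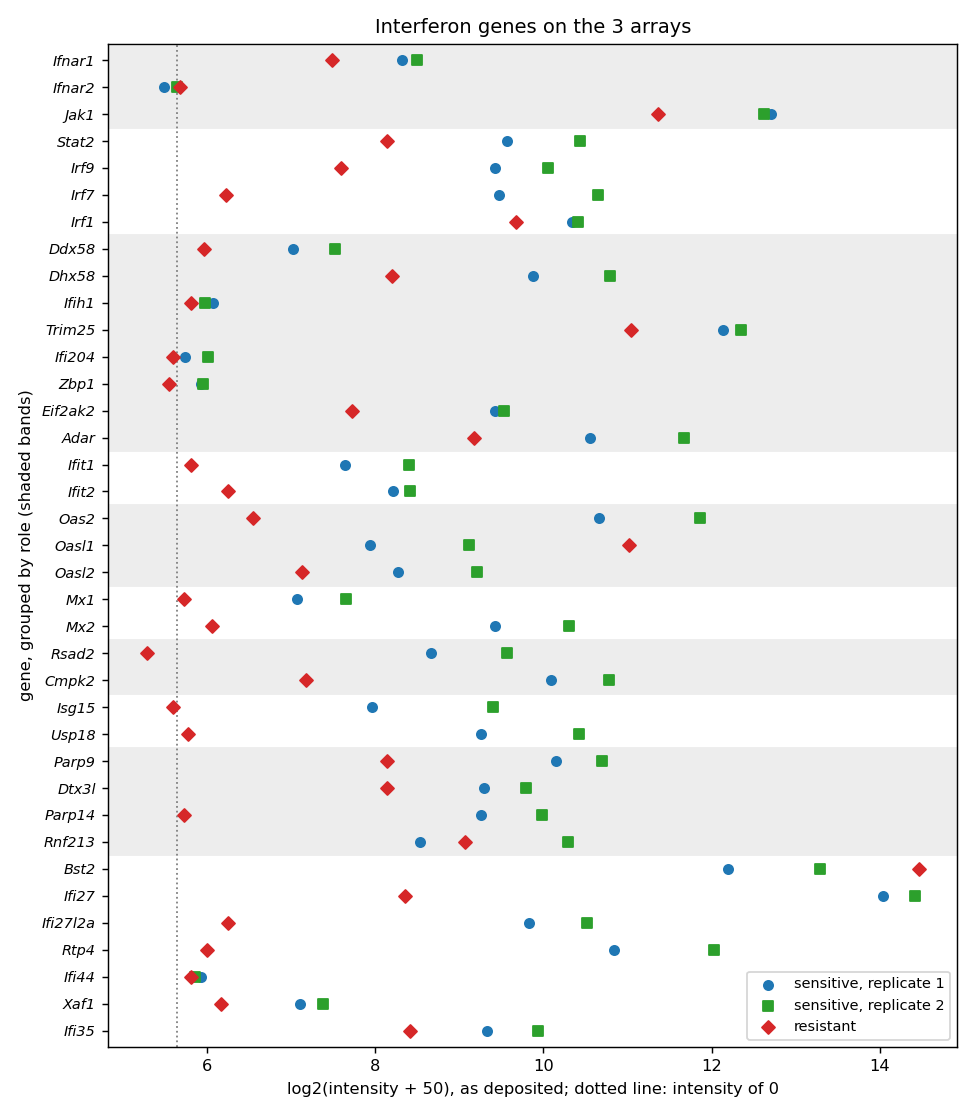
Level of each gene on the 3 arrays as log2(intensity + 50), with a dotted line at an intensity of 0; circles and squares are the sensitive replicates and diamonds the resistant array. The resistant array lies left of both sensitive arrays for 33 of 37 genes, where it does so for 68.4% of all genes, and right of both for Oasl1, Bst2 and Ifnar2, the last with all 3 arrays near 0.

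The promoters of the genes were set beside these values because ISGF3 acts through the ISRE. RefSeq windows of the GRCm38.p6 build, from 250 bases before to 50 bases after an annotated start, were at hand for 29 of the 41 genes. The ISRE core was searched on either strand as GAAA, then 2 bases of any kind, then GAAA, and 11 of these 29 genes held it in at least 1 window, against 3.99% of 27025 genes and 3.44% of 32851 windows. The TATA box, searched as TATAAA on either strand, was held by 4 (13.8%, against 15.7%).

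The stretches from 150 bases before the start to the base before it are given for 3 genes that fell and hold the ISRE core, for Bst2, which rose and also holds it, and for the neighbours Oasl1 and Oasl2, which moved apart and hold none here. They are written in the direction of transcription, with the ISRE core in capitals:
Isg15, chr4:156200819-156200968, minus strand: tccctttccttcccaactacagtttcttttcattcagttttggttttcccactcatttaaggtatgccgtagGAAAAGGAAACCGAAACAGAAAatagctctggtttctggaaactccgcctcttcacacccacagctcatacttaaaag
Rsad2, chr12:26456453-26456602, minus strand: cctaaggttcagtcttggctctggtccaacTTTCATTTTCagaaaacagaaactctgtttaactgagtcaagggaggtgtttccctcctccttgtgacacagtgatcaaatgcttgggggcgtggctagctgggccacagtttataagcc
Ifit1, chr19:34640739-34640888, plus strand: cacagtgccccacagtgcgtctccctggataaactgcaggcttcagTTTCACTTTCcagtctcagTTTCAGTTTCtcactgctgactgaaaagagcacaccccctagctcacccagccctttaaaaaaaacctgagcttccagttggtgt
Bst2, chr8:71537473-71537622, minus strand: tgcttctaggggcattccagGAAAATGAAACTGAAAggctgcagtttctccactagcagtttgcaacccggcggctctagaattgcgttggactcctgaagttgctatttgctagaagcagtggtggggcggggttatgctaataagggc
Oasl1, chr5:114923090-114923239, plus strand: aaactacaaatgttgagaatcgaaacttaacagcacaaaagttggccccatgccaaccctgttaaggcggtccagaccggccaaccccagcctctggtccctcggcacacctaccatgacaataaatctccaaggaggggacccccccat
Oasl2, chr5:114896784-114896933, plus strand: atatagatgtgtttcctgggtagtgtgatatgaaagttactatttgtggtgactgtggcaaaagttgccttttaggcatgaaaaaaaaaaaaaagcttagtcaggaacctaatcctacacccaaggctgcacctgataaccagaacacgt

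Isg15 held 3 overlapping cores, with first bases at -78, -72 and -66 from the annotated start. Bst2 held 2 overlapping cores at -130 and -124, Ifit1 had 2 separate ones and Rsad2 had 1. An ISRE core within the window was thus found both in genes that fell and in 1 that rose. Of the 8 measured genes with the core 4 fell and 1 rose (median difference -1.81), and of the 17 measured genes with a window and no core 4 fell and 1 rose (median -1.22). The 12 genes with no window in the table included 9 of the 17 that fell (median -3.84), so the windows describe only part of the response. A match is a description of letters, and no binding was measured here.

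**Figure D2:**
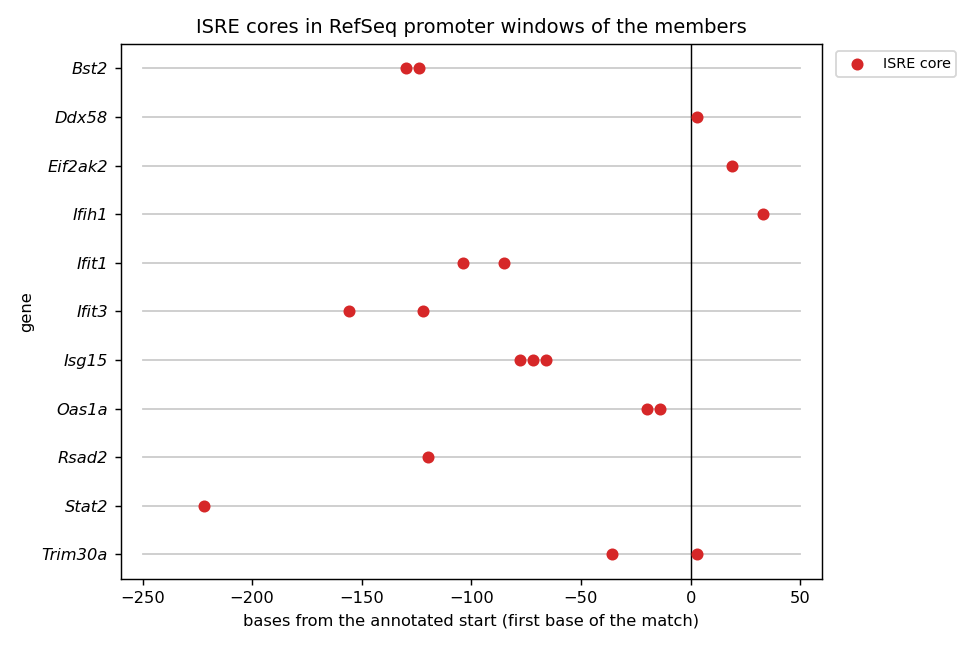
First base of each ISRE core (circles), in bases from the annotated start, for the 11 genes with at least 1 match. Isg15, Ifit1, Rsad2 and Bst2 have their ISRE cores before the start, and those of Ddx58, Eif2ak2 and Ifih1 lie after it.

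None of the 3 measured receptor and kinase genes fell on both scales. Ifnar1, the signalling subunit of the receptor, read 270 and 313 in sensitive replicates 1 and 2, and 129 in the resistant array. Its difference of -0.93 (95% interval -1.55 to -0.30) was not called, and it was -0.33 after scaling. Ifnar1's second probe was dimmer, at 43.5, 31.7 and 18.7, in the same order. Ifnar2, the high-affinity subunit, read -4.97, 0 and 1.56 units, so its probe measured nothing on any array. Jak1, the receptor's tyrosine kinase, went from 6621 and 6239 to 2593 (-1.29, SE 0.20, limma adjusted p = 2.18e-04) and was called lower as deposited only, since the scaled difference was -0.53.

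Of the transcription factors, Irf7 and Irf9 fell and Irf1 kept its rank. Irf7, the master regulator of interferon production, went from 661 and 1560 to 24.9 units, the level of the median probe on that array (log2 difference -3.84, SE 0.39, limma adjusted p = 9.90e-06). Irf9, the DNA-binding part of ISGF3, went from 639 and 1014 to 143 (-2.15, scaled -1.54). For both genes the resistant value lay below both sensitive values by more than the sensitive arrays differed.

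Stat2, the ISGF3 subunit with the main activation domain, read 709, 1340 and 233. That difference of -1.86 was called as deposited only, and the scaled difference of -1.20 had an adjusted p = 0.11 in limma. Irf1, a factor that interferon gamma induces strongly, read 1252, 1315 and 768. The difference of -0.70 (95% interval -1.18 to -0.23) was not called and came to 0.03 after scaling. On the 3 arrays Irf1 stood at percentiles 81.9, 81.9 and 81.2 of all genes, whereas Irf7 stood at 73.6, 84.3 and 42.2.

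**Figure D3:**
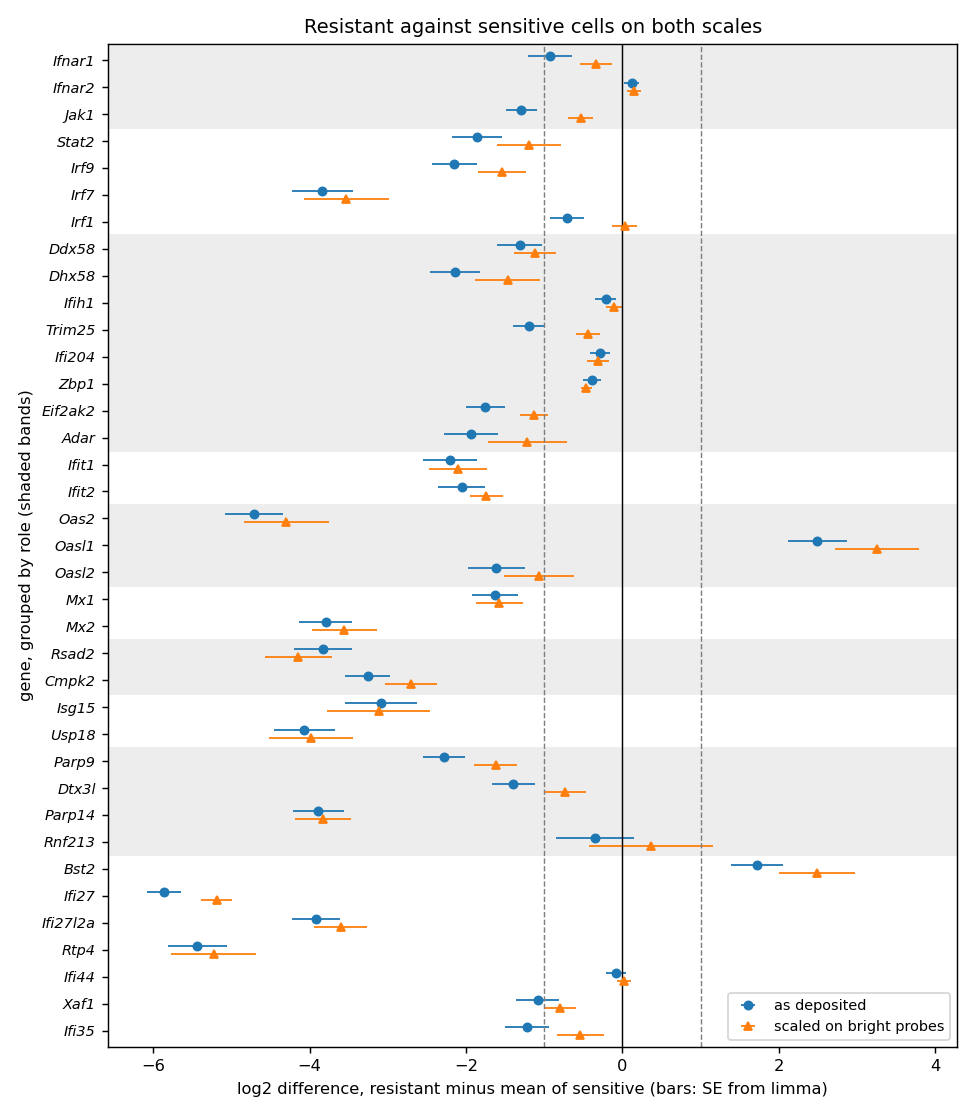
Log2 difference, resistant minus the mean of the sensitive arrays, as deposited (circles) and scaled on bright probes (triangles), with the SE from limma as bars and dashed lines at a difference of 1 either way. As deposited, Ifi27 lies farthest left at -5.87 and Oasl1 farthest right at 2.49, and Irf1 moves from -0.70 to 0.03 between the scales.

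Among the 8 genes of nucleic acid sensors and their partners, 1 fell on both scales. That is near the share of all genes (8.34%, or 12.6% of those that reached 50 units on some array). As deposited 5 were called lower, against 18.5% of all genes, and 4 of these calls held on that scale only. Eif2ak2, the RNA-activated kinase PKR that halts translation, fell from 637 and 690 to 162 (-1.75, scaled -1.13), and its sensitive values lay close together. Dhx58, a regulator of RIG-I-like receptors, went from 895 and 1720 to 244 (-2.14, scaled -1.47). Ddx58, which encodes RIG-I itself, read 80.8, 134.5 and 12.4 (-1.31, scaled -1.12).

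Adar, which edits adenosine to inosine in double-stranded RNA, went from 1451 and 3214 to 529 (-1.94, scaled -1.21). Trim25, the ubiquitin ligase that acts with RIG-I, went from 4466 and 5152 to 2060 (-1.20, scaled -0.44). Dhx58, Ddx58, Adar and Trim25 were therefore lower on the resistant array than on both sensitive arrays, as 68.4% of all genes were. Their calls did not hold after scaling. The scaled difference of Adar from the nearer sensitive array (-0.69) was smaller than its scaled sensitive gap (1.05), and for Dhx58, Ddx58 and Trim25 it was larger. Ifih1 (MDA5), Ifi204 and the Z-nucleic acid sensor Zbp1 were under 50 units on every array, where a fall could hardly be seen.

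Both measured IFIT genes, whose products bind foreign RNA ends and translation factors, fell. Ifit1 went from 150 and 288 to 6.22 units (-2.21, SE 0.34, limma adjusted p = 2.59e-04). Ifit2 went from 246 and 292 to 26.4 (-2.06, scaled -1.74). The Mx GTPases, which trap viral nucleocapsids, fell as well, Mx2 from 640 and 1211 to 17.1 (-3.80, scaled -3.56) and Mx1 from 84.5 and 152 to 3.11 (-1.63, scaled -1.57).

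Of the OAS family, whose enzymes make the oligoadenylates that activate RNase L, 3 listed genes were measured, and they differed in direction. Outside the list of members, Oas3 fell from 178 and 189 to 35.8 (-1.44), and Oas1b, Oas1c and Oas1g were not called. Oas2 fell from 1567 and 3667 to 43.6 units (-4.71, SE 0.38, limma adjusted p = 1.44e-06). Oasl1, an OAS-like protein known to restrain translation of Irf7, rose from 195 and 504 to 2025 (2.49, SE 0.38, limma adjusted p = 2.02e-04, scaled 3.25). Oasl2, the gene next to it on chromosome 5, went the other way, from 260 and 543 to 90.2 (-1.61, scaled -1.07), and was called as deposited only. Oasl1 is above both sensitive arrays and Oasl2 below both, and no gene lies between them in the annotation's order of coding genes. Their promoter stretches above hold no ISRE core.

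Rsad2 and Cmpk2, neighbours on chromosome 12, fell together. Rsad2 encodes viperin, which turns CTP into a chain terminator of viral polymerases, and Cmpk2 encodes a mitochondrial nucleoside monophosphate kinase. Rsad2 went from 357 and 708 to -10.9 units, below the subtracted background (-3.83, SE 0.37, limma adjusted p = 6.37e-06). Cmpk2 went from 1042 and 1706 to 94.9 (-3.26, scaled -2.71). The 2 genes that make up the ISG15 system here fell too. Isg15, the ubiquitin-like protein joined to other proteins in infected cells, read 200, 625 and -1.56 (-3.08, scaled -3.12). Usp18, which removes Isg15 and blocks the receptor, read 564, 1319 and 4.67 (-4.07, scaled -3.98).

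Several of these falls end in a spot that read close to nothing. At most 10 units were read on the resistant array for 11 of the 37 genes, near the share of all genes (4752 of 17742). Of the 11, Ifit1, Mx1, Rsad2, Isg15, Usp18 and Parp14 fell. No spot flags were used here, so a failed spot was not separated from an absent transcript. Where both sensitive arrays read 500 units or more, 2 of 21 interferon genes, Usp18 and Parp14, read at most 10 on the resistant array, against 0.753% of all such genes. Leaving out those 6 genes, 11 of the 17 falls end above 10 units, from 14 units for Rtp4 to 278 for Ifi27.

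The ADP-ribosylation genes Parp14, Dtx3l and Parp9 lie side by side on chromosome 16 and were all lower. Parp9, which partners Dtx3l as an ADP-ribosyl and ubiquitin transferase, fell from 1083 and 1604 to 232 (-2.28, scaled -1.62). Parp14 fell from 565 and 960 to 3.11 (-3.89, scaled -3.83). Dtx3l went from 576 and 839 to 233 (-1.40), called as deposited only, with a scaled difference of -0.73. All 3 were lower on the resistant array than on both sensitive arrays, as 68.4% of all genes were, and Parp14 had the largest difference. Rnf213, a very large ubiquitin ligase of lipid droplets, was the 1 gene whose resistant value, 485, lay between its sensitive values, 322 and 1200. The difference for Rnf213 was -0.35 (95% interval -1.43 to 0.73, limma adjusted p = 0.59), and it was 0.37 after scaling.

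Of the 7 measured genes of membrane, mitochondrial and other induced proteins 3 fell and 1 rose, with a median difference of -1.22. Ifi27, a small mitochondrial protein, was matched through a probe that carries its older name Ifi27l1, and fell from 16765 and 21768 to 278, a 69.2-fold drop of the mean on the deposited scale (-5.87, SE 0.22, limma adjusted p = 6.67e-09, scaled -5.19). Ifi27l2a, its neighbour on chromosome 12, fell from 862 and 1418 to 26.4 (-3.92, scaled -3.60). Rtp4, a chaperone of membrane receptors, fell from 1787 and 4139 to 14 (-5.44, SE 0.37, limma adjusted p = 4.51e-07). The second Rtp4 probe read 54.7, 145 and 9.33, again lowest on the resistant array. Ifi35 (595, 930 and 291) and the apoptosis gene Xaf1 (88.2, 117 and 21.8) were lower on the resistant array than on both others but fell short of the size asked from sensitive replicate 1. Ifi44 was under 50 units on all 3 arrays.

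Bst2, which encodes tetherin, the membrane anchor that holds budding enveloped virus at the cell surface, rose against this trend. Bst2 went from 4647 and 9919 to 22526 (1.72, SE 0.34, limma adjusted p = 1.24e-03, scaled 2.49). Its percentile among all genes was 95.4, 98.4 and, in the resistant cells, 99.6. The call of Bst2 was lost with a robust trend in limma (26 of the 27 calls were kept), and both Bst2 and Oasl1 lost theirs after quantile normalization. Over the alternatives the difference ranged from 1.18 to 2.49 for Bst2 and from 1.91 to 3.25 for Oasl1.

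The sensitive arrays themselves differed in these genes, with replicate 2 the higher. Replicate 2 exceeded replicate 1 for 34 of 37 genes, where 65% of all genes did. At least 1 log2 unit separated the replicates for 9 genes (24.3%), all higher in replicate 2, against 0.705% of all genes (1.06% of those that reached 50 units), and for 0 genes in the other direction, against 0.152%. These 9 were Rnf213 (1.75), Isg15 (1.43), Oas2 (1.20), Rtp4 (1.19), Irf7 (1.18), Oasl1 (1.18), Usp18 (1.16), Adar (1.12) and Bst2 (1.09). The median gap was 0.63 for the interferon genes and 0.08 for all genes, and 0.56 and 0.04 after scaling, where 9 genes were again at least 1 apart, against 0.541%. With 1 array on each side this has no test, and the arrays share no label beyond the line that would separate culture from labelling or hybridisation.

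By role, the gap was widest in the ISG15 pair (median 1.29) and the OAS family (1.18). The median of the receptor and kinase genes, 0.15, was that of Ifnar2, whose probe measured nothing. Among the 8 sensors and partners the median was 0.23, with 3 genes under 50 units, while Adar (1.12) and Dhx58 (0.91) had wide gaps. Jak1 (-0.09), Irf1 (0.07), Eif2ak2 (0.11), Trim25 (0.20) and Ifit2 (0.21) hardly differed between the sensitive arrays. Oasl1 and Bst2 were higher in replicate 2 like the genes that fell, so the genes that rose in the resistant cells moved with the others between the sensitive arrays. For 33 of 37 genes the resistant array lay farther from the nearer sensitive array than the sensitive arrays lay from each other, where 69.8% of all genes did. After scaling it was 28 of 37, against 68.4%. Against replicate 1 alone, the lower of the sensitive arrays, the median difference was -1.37, and against replicate 2 alone it was -2.08.

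**Figure D4:**
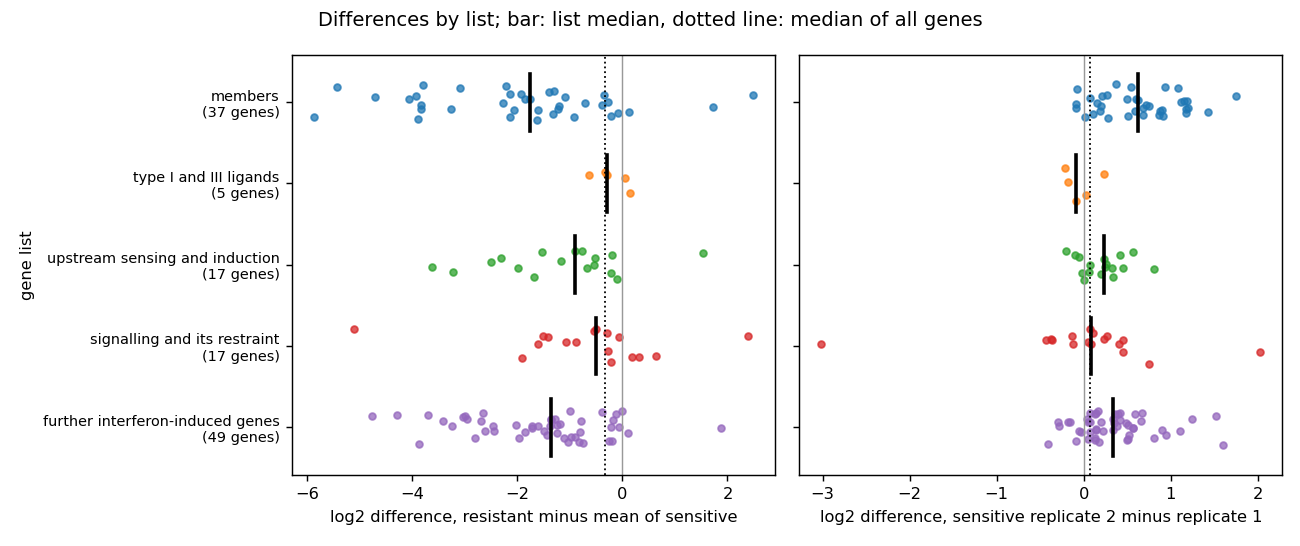
Log2 differences as deposited for the 37 interferon genes and for 4 lists of other genes of the pathway, one point a gene with a little vertical scatter, the list median as a bar and the median of all genes as a dotted line. In the left panel (resistant minus sensitive) the interferon genes centre on -1.75 and the further interferon-induced genes on -1.36, and in the right panel (sensitive replicate 2 minus 1) on 0.63 and 0.33.

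Other genes of the pathway were taken from 4 further lists. Of 5 measured genes of the interferon ligands all were under 50 units on every array, among them Ifnb1 at 23.6, 25.1 and 10.9. None met the call on either scale; Ifna12 and Ifne had adjusted p-values of 3.2e-03 and 0.038 in limma as deposited and missed the size rule. Among 17 measured genes of upstream sensing and induction, 5 fell and 1 rose, to be read against 8.34% and 5.21% of all genes. Tlr7, the endosomal sensor of single-stranded RNA, fell from 1158 and 1737 to 70.0 (-3.61), Irf5 fell by 3.23, Trex1, the exonuclease that clears cytosolic DNA, fell by 2.50, and Irf3, the factor that first induces interferon beta, fell by 2.31. Tlr4, the receptor for lipopolysaccharide, rose from 137 and 204 to 583 (1.54). Mavs, the adaptor of RIG-I-like receptors, read 544, 696 and 574 and was not called.

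In the list of signalling and its restraint, 2 of 17 fell and 1 rose, numbers near the shares of all genes. Irf8, a factor of the monocyte and dendritic lineages that is mutated in this strain, went from 3115 and 2302 to 29.6 (-5.10), and the phosphatase gene Ptpn6 had a difference of -1.91. Ifngr1, the ligand-binding chain of the interferon gamma receptor, rose from 1024 and 1415 to 6568 (2.40), while its partner Ifngr2 was called lower as deposited only (-1.51, scaled -0.78). Socs1, an inhibitor of JAK kinases, read 134, 260 and 177 and was not called.

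Of 49 measured further interferon-induced genes, 19 fell and 0 rose on both scales, against 8.34% and 5.21% of all genes. Their median difference was -1.36, against -0.33 for all genes. On the deposited scale 29 were called lower and 1, Slfn4, higher (16.2, 150 and 370), against 18.5% and 5.23% of all genes. Psmb8, an immunoproteasome subunit, had a difference of -4.76, the DNA sensor gene Ifi203 one of -4.29, Uba7, the activating enzyme for Isg15, one of -3.87, and the necroptosis effector gene Mlkl one of -3.70. Between the sensitive arrays these 4 differed by 0.08, -0.03, 0.51 and -0.16. Psmb8, Ifi203 and Mlkl thus fell without the gap between the sensitive replicates that Irf7, Oas2 or Isg15 showed. These genes were picked by the smaller of their differences from the sensitive arrays, which favours a small gap. Parp12, Lgals3bp and Epsti1 also fell, with gaps of 0.95, 0.90 and 0.81. Over the list the median gap was 0.33, and 41 of the 49 genes were higher in replicate 2, where 65% of all genes were.

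Markers of the labelled cells were present on all arrays. Ptprc, the leukocyte surface phosphatase, read 8096, 8219 and 6725, and the granule gene Mpo read 76710, 84138 and 80905, while 5 of the 9 myeloid markers were called lower as deposited and 2 of them, Spi1 and Cd34, fell. Markers of plasmacytoid dendritic cells, the main producers of type I interferon in blood and marrow, were also lower in the resistant cells. As deposited 5 of 8 were called lower and 2 fell, much like the myeloid markers, against 18.5% and 8.34% of all genes. Their summed intensity was 9836, 7875 and 2123, with Cox6a2, Runx2 and Il3ra the largest parts. Between the sensitive arrays these 8 markers had a median gap of -0.18, opposite in sign to that of the effectors. Siglech, the most selective of them, read 72.1, 58.0 and -4.67, and Cox6a2 4976, 3921 and 261, whereas Ccr9 (89.5, 103 and 56.0) and Runx2 (2639, 1934 and 1282) were not called. For the marker lists that follow, 8.34% of all genes fell and 5.21% rose, and 23.7% were called in either direction as deposited. Of 8 markers of T and NK cells 1, Nkg7, fell, while Cd3d and Ncr1 were at most 10 units on all arrays. The summed intensities were 1456, 1432 and 294, with Nkg7 (1063.5, 1060 and 154) the largest part. Of 8 B cell markers, Cd79b, Cd22 and Blnk fell and Ebf1 rose (sums 2897, 2968 and 409), with Ms4a1 at most 10 units throughout. Of 10 fibroblast and endothelial markers 2 rose, Pdgfra, a fibroblast receptor (2.48, 3.96 and 112), and Kdr, an endothelial receptor (171, 200.5 and 1165). Of the same list 0 were called lower, though Cdh5 (62.1, 85.7 and 9.33) and Col1a1 (41.0, 30.3 and 0) read lowest on the resistant array. The sums were 1025, 1219 and 2879, with Pecam1 (708, 824 and 1590) and Kdr the largest parts. Of 6 erythroid markers 0 were called as deposited (sums 7707, 8778 and 17138, nearly all Tfrc). The part of any of these in the fall of the interferon genes was not tested, and fewer cells of a type cannot be told apart from less RNA per cell in such bulk samples.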

How the data were processed

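Per the labels' protocols, RNA from the cell cultures was copied into amino-allyl antisense RNA and coupled to Cy5, a single colour on each array. Intensities of 26423 probes on 3 arrays were deposited by the authors as 1 table. Values reach below 0, so a background had been subtracted; the labels and the table name no scanner, image software or scaling. Median intensities were 58.4 and 72.5 for sensitive replicates 1 and 2 and 24.9 for the resistant cells, and the number of arrays limits the precision.

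Of the probes, 20377 had 1 gene symbol in the platform's annotation, 0 several and 6046 none. Symbols were updated through GRCm38.p6 gene names (18213 current, 2126 older, 38 unmatched or ambiguous). The platform's build is not given, so the annotation served for names, gene order and promoter windows only. limma 3.58.1 in R 4.3.3 (lmFit, eBayes with a trend, prior 10.98 degrees of freedom) was fitted to log2(intensity + 50) over 17742 genes, and tested on simulated data. Scaling on bright probes set each array's median log2 ratio to the sensitive mean to 0. Alternatives changed the scaling, offset, probe rule, filter, variance model, size rule and sensitive arrays used. Every measured member was accounted for; from each other list the called genes of largest change, at most 4, and some well-known ones were named. The members, the lists and the offset of 50 were chosen with earlier results of these data known. Tables and plots were made in Python 3.11.15 with pandas 2.3.3, numpy 2.4.6 and matplotlib 3.10.9.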

Additional observations from a re-analysis of the deposited data

How the results depend on the processing

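All 27 genes called as deposited kept their direction under the 3 other scalings between arrays, and most other alternatives could not turn it by their construction. The number called did not hold, and the share of all genes called was not counted under these alternatives. After quantile normalization 9 genes were called lower and 0 higher, with a floor of 50 units 0 and 0, and at a log2 difference of at least 2 there were 12 and 0. The robust trend left 1 called higher. The prior degrees of freedom were 10.98 as deposited, 2.56 after scaling on bright probes, 1.74 after quantile normalization, 81.07 after centring on the medians and 0.74 with the floor. The median difference of the members was -1.20 after scaling on bright probes, -1.25 after quantile normalization and -1.13 after centring, against -1.75 as deposited. Without either sensitive replicate it ranged from -2.08 to -1.37, with no test, as no residual degrees of freedom remain.

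Among uncalled genes the sign turned for Irf1 (0.031), Rnf213 (0.37) and Ifi44 (0.026) after scaling on bright probes, for Rnf213 (0.25) and Ifi44 (0.028) after quantile normalization, and for Ifih1 (0.41), Ifi204 (0.34), Zbp1 (0.23), Rnf213 (0.27) and Ifi44 (0.54) after centring on the medians. Without either sensitive replicate Rnf213 ranged from -1.22 to 0.53. The cause of these changes was not tested. No paired analysis was possible because the resistant group holds 1 array and its label carries no replicate number. Intensities under 50 units are little above background and limit what Ifnar2, Ifih1, Ifi204, Zbp1 and Ifi44 can show. The second probe of Jak1 was dim, at 16.2, 51.4 and 9.33 in sensitive replicates 1 and 2 and the resistant array. That of Irf1 read 2.48, -3.96 and 3.11 in the same order. With the mean of a gene's probes the Jak1 difference came to -0.88, short of the size rule.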
